A study of Mus musculus with 8 samples.

Results

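The effect of the time of day on gene expression in the cortex of wildtype (WT) mice was followed by comparing 2 mice killed at ZT16 with 2 mice killed at ZT4, which are 4 of the 8 arrays of the series and all those labelled wildtype. ZT counts hours from the moment the lights go on. Since the mice were group housed under a cycle of 12 h light and 12 h dark, ZT4 lies in the light phase and ZT16 in the dark phase, when mice are mostly awake. All mice were of the C57/bl6 strain and, per the labels, 4 months old, and the methods give males. The other 4 arrays, set beside the WT values below, come from SHARP1/2 double null mutant mice (S1/2-/-), with 2 mice at ZT4 and 2 at ZT16, which by their genotype are null for the genes of the transcriptional repressors SHARP1 and SHARP2, *Bhlhe41* and *Bhlhe40*. The 1 probe set of *Bhlhe40* gave 913 and 834 at ZT4 and 1043 and 889 at ZT16 on these arrays, against 983 to 1285 on the WT arrays, so its signal does not show the deletion, and the sources used here do not say whether it lies inside the deleted part. *Bhlhe41* was not analysed here. Each array holds the RNA of 1 mouse, so replicates are individual animals. Tissue was taken as cortex from coronal slices of the brain, cut in a slicing matrix over a fixed span behind bregma after anesthesia and decapitation. In such bulk tissue, fewer cells of a type and less RNA per cell cannot be told apart.

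Most cells of the body keep time with a feedback loop of transcription. CLOCK or NPAS2 pairs with BMAL1, encoded by *Arntl*, and activates genes with an E-box in their promoters, among them *Per1*, *Per2*, *Cry1* and *Cry2*, whose products return to the nucleus and block the pair. Outputs such as *Dbp* and *Tef*, transcription factors of the PAR bZIP family, follow the loop, and the nuclear receptors RORα and REV-ERB, the latter encoded by *Nr1d1* and *Nr1d2*, set the level of *Arntl* in opposite directions. In the cortex the daily cycle of sleep and waking adds to this loop, since waking activity induces immediate early genes, chaperones and genes of energy use, while other transcripts are known to be higher after sleep.

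Signals are MAS5 values, the brightness of a probe set on a linear scale, and a higher signal stands for more transcript of the same gene but cannot be set against that of another gene. Of 12422 probe sets other than controls, the 7453 with the highest mean were tested. The 8 arrays had median signals of 185 to 205 and correlated at 0.950 to 0.965 on the log2 scale, except that the second WT mouse at ZT16 (replicate 2) correlated at 0.944 to 0.955 with the other arrays. That array also held 30 brighter probe sets at under 0.5 times their signal on every other array, against 1 to 5 for each of the other 7 arrays, and a gene's log2 fold change is given below without it too where leaving it out moved the value by over 1.5 times. The 3′ to 5′ signal ratio of the *Gapdh* controls, a sign of RNA integrity, was 0.884 and 0.887 on the WT arrays at ZT4 and 0.918 and 0.961 at ZT16, the latter on replicate 2, while that of the *Actb* controls was higher at ZT4, at 2.30 and 2.09, than at ZT16, at 1.91 and 2.01. Of the markers of cortical layers 15 passed the filter on low signals, and the brightest, *Tbr1*, a transcription factor of deep-layer neurons that is named here for its level, gave 6612 and 6551 at ZT4 and 7798 and 5667 at ZT16. Of the 15 cortical layer markers 5 were higher and 10 lower at ZT16. Markers of 3 other sources were mostly higher at ZT16 in WT, with 9 of 9 tested striatal, 6 of 7 choroid plexus and 18 of 20 myelin markers. Of all 5690 tested genes, 2861 were higher. Thalamic markers had 7 of 12 higher and hypothalamic markers 3 of 5, while 4 of 5 blood markers were lower. The summed signal of the striatal markers was 11378 to 11736 at ZT4 and 19792 to 25100 at ZT16, that of the choroid plexus markers 3132 to 3387 and 6339 to 6548, and that of the myelin markers 33770 to 36813 and 42551 to 43745. Their part in the results below was not tested.

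With limma, 1 of 7453 probe sets passed both thresholds between ZT4 and ZT16 in WT cortex (fold change above 1.5, adjusted p below 0.05), which is 0.0134% of those tested. The probe set belongs to *Dusp1*, a gene for a nuclear phosphatase of MAP kinases that is transcribed soon after stimulation. Its signals were 683 and 662 at ZT4 and 2129 and 2141 at ZT16. The 2 mice of each time gave nearly the same value, and *Dusp1* rose 3.17-fold (limma adjusted p = 0.0379, with a log2 fold change of 1.67 and its standard error of 0.19). Leaving out any 1 of the 8 arrays left its log2 fold change between 1.64 and 1.69 but moved the adjusted p between 0.00235 and 0.239, and the call was lost in 5 of these 8 cases. Without the first WT mouse at ZT4 the adjusted p was 0.239 and without the second 0.135. Without replicate 2 of WT at ZT16 it was 0.152, and without the first or the second S1/2-/- mouse at ZT16 it was 0.0773 or 0.0941. Without an adjustment for the number of tests, 567 probe sets had p under 0.05, of which 136 were higher and 121 lower at ZT16 by over 1.5-fold. With 2 mice a group, the values below describe these mice, and none of the genes other than *Dusp1* passed the test.

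**Figure D1:**
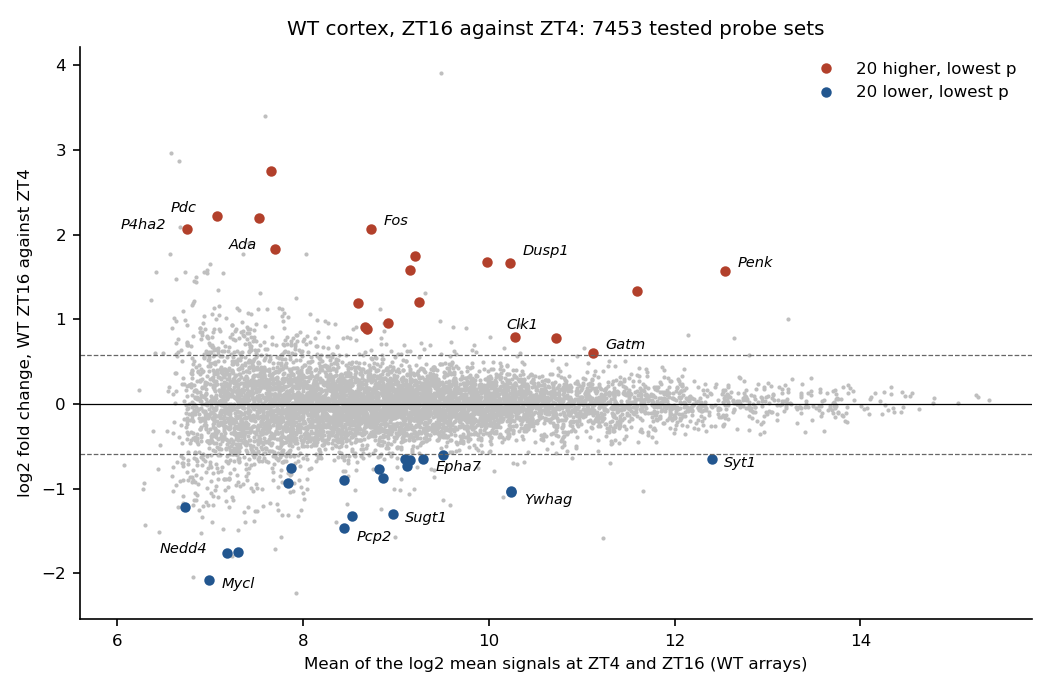
Each point is 1 of 7453 tested probe sets, with the mean of its log2 signals at ZT4 and ZT16 in WT cortex on the x axis and its log2 fold change, ZT16 against ZT4, on the y axis. Dashed lines mark a 1.5-fold change, red and blue points the 20 higher and 20 lower probe sets with the lowest p, and only *Dusp1* passed the adjusted threshold.

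Of the 21 tested clock genes, *Per2*, *Cry1* and *Per1*, all repressors of the loop, had the highest fold changes in WT. *Per2* gave signals of 131 and 133 at ZT4 and 264 and 312 at ZT16. This 2.17-fold difference had a log2 fold change of 1.12 with a standard error of 0.31 (adjusted p = 0.539), with both dark-phase mice above both light-phase mice. *Cry1* gave 453 and 555 at ZT4 and 879 and 1116 at ZT16, a 1.98-fold difference (log2 fold change 0.98 with a standard error of 0.22, adjusted p = 0.321). It was the first gene below the 20 higher probe sets by p. *Per1*, which is also induced by neuronal activity and glucocorticoids, gave 446 and 462 at ZT4 and 585 and 833 at ZT16 (log2 fold change 0.62, adjusted p = 0.625), and 0.37 without replicate 2. The *Bhlhe40* probe set gave 1074 and 983 against 1188 and 1285 (log2 fold change 0.27, adjusted p = 0.67). So 4 of the 8 tested repressors had both signals higher at ZT16 than at ZT4, where 18.7% of the 5690 tested genes did. The other 4, *Cry2*, *Nr1d1*, *Nr1d2* and *Per3*, had log2 fold changes of -0.32 to -0.07. Of these, *Nr1d1* had both signals lower at ZT16, at 284 and 256 against 236 and 251, where 17.9% of all tested genes did. *Cry2* gave 515 and 511 at ZT4 and 572 and 293 at ZT16, so its lower mean rests on replicate 2, without which its log2 fold change was 0.16. Without it *Per3* went from -0.08 to -0.32 and *Nr1d2* from -0.07 to 0.04.

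Among the outputs of the clock, *Tef* gave 1902 and 2377 at ZT4 and 2971 and 2840 at ZT16 (log2 fold change 0.45, standard error 0.15, adjusted p = 0.625), and *Dbp* 789 and 1096 at ZT4 and 1187 and 1431 at ZT16 (0.49, adjusted p = 0.641). Both had their dark-phase signals above their light-phase signals, as did *Btrc*, part of the ligase that marks PER proteins for degradation, at 512 and 558 against 627 and 671. Another tested probe set of *Btrc* overlapped between the times, at 434 and 579 against 585 and 483 (0.08, and 0.22 without replicate 2). The remaining 6 outputs and regulators, *Usp2*, *Csnk1d*, *Csnk1e*, *Nampt*, *Ppargc1a* and *Timeless*, overlapped between the times, with log2 fold changes of -0.23 to 0.12, and of -0.40 to 0.44 without replicate 2. Of the 4 tested activators 3 were lower and 1 was higher at ZT16. *Arntl* gave 702 and 599 at ZT4 and 591 and 544 at ZT16 (log2 fold change -0.19). *Npas2* (-0.38) and *Clock* (0.14) overlapped between the times, and without replicate 2 they gave -0.02 and 0.39. *Rora* gave 799 and 590 at ZT4 and 498 and 236 at ZT16 (log2 fold change -1.003, adjusted p = 0.544), and without replicate 2 its log2 fold change was -0.46. Another probe set of *Rora*, below the filter, gave 1.40 in the opposite direction, with no value computed without replicate 2.

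**Figure D2:**
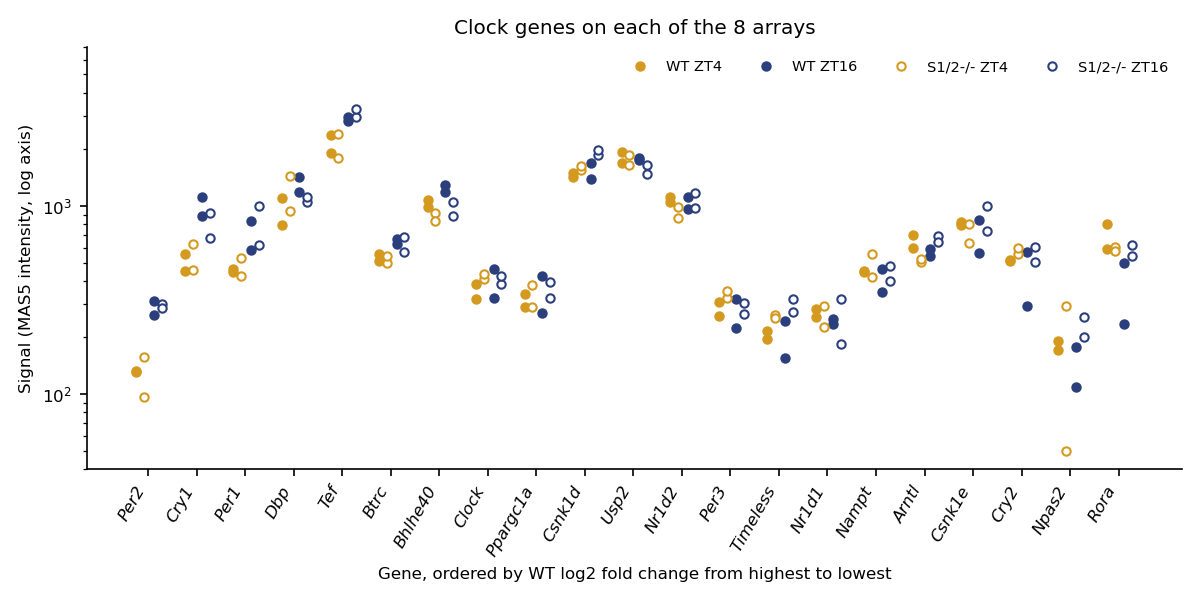
Signals of the 21 tested clock genes on each of the 8 arrays, on a log axis, with genes ordered by their WT log2 fold change. Filled points are WT and open points S1/2-/- mice, ZT4 in yellow and ZT16 in blue, and the filled blue points lie above the filled yellow points from *Per2* to *Bhlhe40* on the left.

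The sequences before the starts of *Cry1*, *Tef* and *Per1* are shown because they were the 3 of 17 clock genes with a promoter in the RefSeq table (GRCm38.p6) that held the E-box CACGTG within 250 bases upstream of the start, on either strand. All 3 were higher at ZT16. Of all 27025 genes in that table, 8.09% held it. Of 25 tested immediate early genes with a promoter there, 8 (32%) held it, *Dusp1* among them. These shares and those of other motifs below count the whole promoter sequence of the table, of which the first 250 bases are printed. *Per2* was named only, without a sequence. The table holds a second start for *Tef*, with an E-box of its own 138 bases upstream (chr15:81811164-81811413), and a second start for *Per1* (chr11:69099902-69100151) whose window had 0 E-boxes. The E-box is in capitals, with its first base 60 bases before the start in *Cry1* (chr10:85185055-85185304, minus strand), 127 in *Tef* (chr15:81802423-81802672, plus strand) and 166 in *Per1* (chr11:69098699-69098948, plus strand). A match describes these letters and does not show that a factor binds there.
Cry1: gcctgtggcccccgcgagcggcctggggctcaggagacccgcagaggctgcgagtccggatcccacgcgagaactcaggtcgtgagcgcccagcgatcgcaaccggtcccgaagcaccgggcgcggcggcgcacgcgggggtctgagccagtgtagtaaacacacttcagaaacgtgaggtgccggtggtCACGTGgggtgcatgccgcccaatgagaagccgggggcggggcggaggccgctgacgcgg
Tef: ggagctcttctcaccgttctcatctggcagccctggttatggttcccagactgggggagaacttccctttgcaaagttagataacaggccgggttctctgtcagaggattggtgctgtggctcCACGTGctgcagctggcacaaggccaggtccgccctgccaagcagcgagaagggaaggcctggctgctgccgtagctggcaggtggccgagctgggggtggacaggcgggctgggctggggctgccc
Per1: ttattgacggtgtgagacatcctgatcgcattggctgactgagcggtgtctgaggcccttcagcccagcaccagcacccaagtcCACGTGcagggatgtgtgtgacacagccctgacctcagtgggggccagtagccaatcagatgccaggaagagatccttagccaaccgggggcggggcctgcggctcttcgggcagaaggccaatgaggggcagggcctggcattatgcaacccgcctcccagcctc

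The S1/2-/- mice gave values of their own for the same clock genes, from arrays not used in the WT comparison. *Per2* gave 96.1 and 158 in the light phase and 300.2 and 288 in the dark phase (log2 fold change 1.26), *Cry1* 459 and 626 against 919 and 677 (0.56), *Per1* 423 and 527 against 1004 and 620 (0.74) and *Tef* 1808 and 2426 against 2982 and 3289 (0.58). All 4 were higher at ZT16 in both genotypes without overlap between the times, where 21% of the 7453 tested probe sets were in S1/2-/- mice. *Arntl* was lower without overlap in WT, as given above, but higher without overlap in S1/2-/- mice, with 506 and 522 against 689 and 640 (0.37). The test of that difference gave an unadjusted p of 0.0272 and an adjusted p of 0.827 in limma. *Dbp* overlapped between the times there, with 936 and 1451 against 1049 and 1118. The test of the difference between the genotypes in the change from ZT4 to ZT16 gave no call for any clock gene (adjusted p from 0.827 to 0.998 over the 21 genes).

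Genes lower at ZT16 are described by the 20 probe sets with the lowest p among those lower by over 1.5-fold whose times did not overlap. These values chose the genes and are a description. They belong to 20 genes, of which none is an immediate early gene or a marker of striatum, myelin or choroid plexus, with log2 fold changes of -2.08 to -0.60 and adjusted p of 0.0681 to 0.544. *Sox4* came next by p. Without WT ZT16 replicate 2, 13 of the 20 remained past 1.5-fold and the median log2 fold change went from -0.91 to -0.78. Replicate 2 was the lower of the dark-phase mice for 13 of the 20. Of all 121 lower probe sets at an unadjusted p, 60 were past 1.5-fold without replicate 2 and 111 without replicate 1, while of the 136 higher ones 112 and 123 were.

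Among lower genes of protein quality control and turnover, *Sugt1*, a partner of the chaperone HSP90 in assembling kinetochores and ubiquitin ligases, gave 729 and 841 at ZT4 and 309 and 329 at ZT16. This is a 2.45-fold lower signal with near-equal values within each time (log2 fold change -1.30, standard error 0.18, adjusted p = 0.0681), and -1.34 without replicate 2. *Nedd4*, a ubiquitin ligase of membrane proteins, gave 233 and 296 at ZT4 and 95.6 and 63.2 at ZT16 (log2 fold change -1.76, adjusted p = 0.321). *Adprhl2*, which encodes an enzyme that removes ADP-ribose from proteins, gave 259 and 307 at ZT4 and 112 and 62.8 at ZT16 (-1.75, adjusted p = 0.297). *Uchl5*, a deubiquitinase of the proteasome, gave 702 and 480 at ZT4 and 309 and 376 at ZT16 (-0.77). On these probe sets all 4 genes stayed past 1.5-fold without replicate 2. The further probe sets of *Sugt1*, *Nedd4* and *Adprhl2*, given below, were not lower without it. *Gstm3*, a glutathione transferase, gave 519 and 588 at ZT4 but 358 and 137 at ZT16, so its log2 fold change of -1.32 was -0.63 without replicate 2.

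Several lower genes belong to signalling at the cell surface and to neuronal excitability. *Epha7*, an ephrin receptor that guides axons and spines, gave 789 and 774 at ZT4 and 541 and 463 at ZT16 (log2 fold change -0.64, standard error 0.16, adjusted p = 0.423). *Wls*, which carries Wnt ligands to the cell surface, gave 935 and 851 at ZT4 and 620 and 562 at ZT16 (-0.60, adjusted p = 0.473). *Kcnab3*, an auxiliary subunit of voltage-gated potassium channels, gave 775 and 659 at ZT4 and 457 and 450 at ZT16 (-0.66). For these 3 genes both dark-phase mice were close to each other and below both light-phase mice. *Gng12*, a subunit of heterotrimeric G proteins, gave 306 and 299 at ZT4 and 198 and 162 at ZT16 (-0.75). *Pcp2*, which acts on G proteins and is best known from Purkinje cells of the cerebellum, gave 370 and 827 at ZT4 and 193 and 208 at ZT16 (-1.46), with a wide gap between the light-phase mice. Another probe set of *Pcp2*, below the filter, overlapped between the times (0.09). *Cdk14*, a kinase that promotes Wnt signalling at the membrane, gave 1730 and 1586 at ZT4 and 1212 and 540 at ZT16 (-1.03), and -0.45 without replicate 2.

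Genes of vesicles and neuropeptides were also among the 20. *Chga*, a protein of dense core granules, gave 462 and 473 at ZT4 and 203 and 310 at ZT16 (log2 fold change -0.90, adjusted p = 0.495). *Adcyap1*, which encodes the neuropeptide PACAP, gave 730 and 632 at ZT4 and 497 and 379 at ZT16 (-0.65). *Syt1*, the calcium sensor of fast transmitter release, gave 7492 and 5866 at ZT4 and 5379 and 3349 at ZT16 (-0.64). Its dark-phase mice lay far apart, and without replicate 2 its log2 fold change was -0.30. The same held for *Ywhag*, an adaptor of the 14-3-3 family, at 1652 and 1661 against 1229 and 538 (-1.03, and -0.43 without replicate 2).

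Lower genes of transcription and RNA control were *Mycl*, *Zfp90*, *Elavl4* and *Gpatch2*. *Zfp90*, a zinc finger repressor, gave 315 and 318 at ZT4 and 161 and 171 at ZT16 (log2 fold change -0.93, standard error 0.24, adjusted p = 0.495). *Gpatch2* gave 191 and 135 at ZT4 and 63.6 and 75.3 at ZT16 (-1.21). *Elavl4*, a neuronal protein that stabilizes mRNA, gave 750 and 674 at ZT4 and 488 and 378 at ZT16 (-0.73). *Mycl*, a member of the MYC family, had the largest fold change of the 20, with 232 and 234 at ZT4 and 111 and 27.4 at ZT16, and its log2 fold change of -2.08 was -1.07 without replicate 2. The last of the 20 by role is *Fabp7*, a fatty acid-binding protein of astrocytes and radial glia whose mRNA is known to cycle over the day in mouse brain. It gave 690 and 574 at ZT4 and 334 and 351 at ZT16 (-0.88, standard error 0.26, adjusted p = 0.539), and -0.91 without replicate 2.

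**Figure D3:**
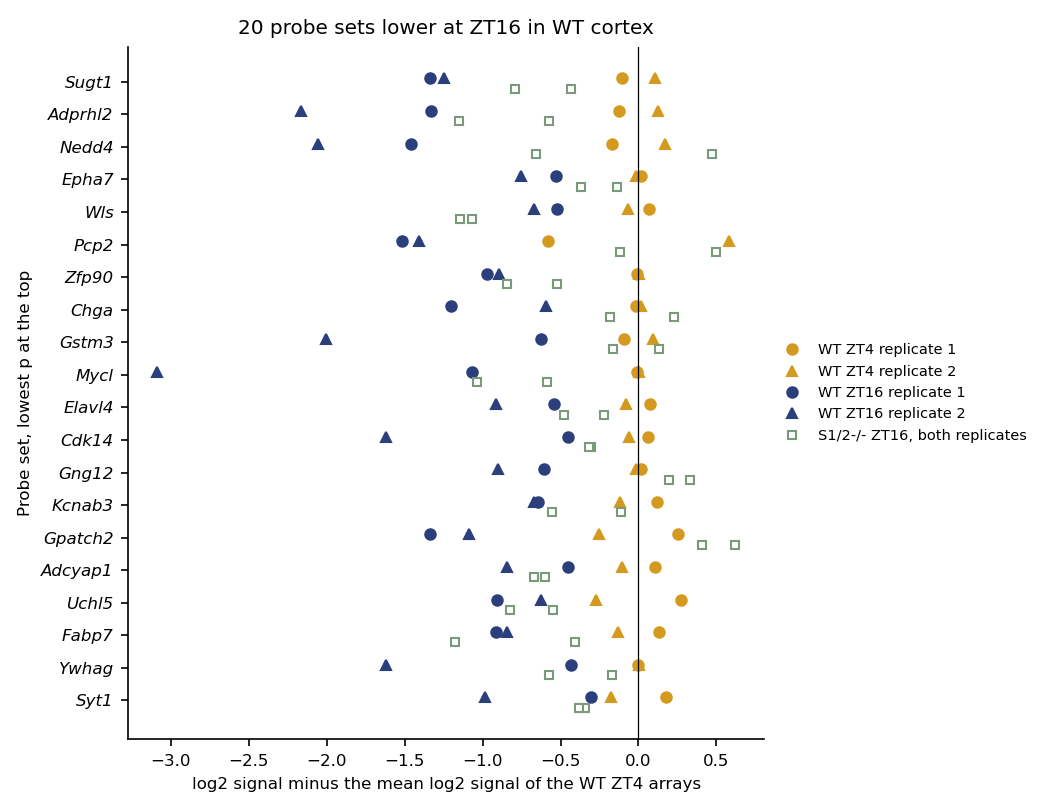
The 20 probe sets lower at ZT16 in WT with the lowest p, as the log2 signal of each array minus the mean log2 signal of the WT ZT4 arrays. Blue triangles (WT ZT16 replicate 2) lie far to the left of blue circles (replicate 1) for *Mycl*, *Gstm3*, *Cdk14* and *Ywhag*, while *Sugt1*, *Zfp90*, *Kcnab3* and *Fabp7* have both close together, and open squares are the S1/2-/- mice at ZT16.

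The array measures many genes with more than 1 probe set, which gives a second reading of the same RNA. Of the 20 lower genes, 8 had a further tested probe set. It was past 1.5-fold in the same direction for 1 of them, *Cdk14* (log2 fold change -0.63). For 6 of the 8 genes the further probe set was the brighter one at ZT4. *Sugt1* gave -0.11, *Nedd4* -0.10, *Gstm3* -0.07, *Ywhag* -0.07, *Gng12* 0.02, *Adprhl2* 0.52 and *Chga* -0.34 on theirs. Without replicate 2 these were 0.14 for *Sugt1*, 0.04 for *Nedd4*, -0.23 for *Gstm3*, -0.18 for *Gng12* and 1.01 for *Adprhl2*. Over all 936 genes with 2 or more tested probe sets, 5 had every probe set lower at ZT16 at an unadjusted p under 0.05 and 4 had every probe set higher. These genes were singled out after their values were seen. The lower ones were *Chga*, *Cdk14*, *Camk2a*, the kinase of synaptic plasticity, *Mef2c*, a neuronal transcription factor, and *Ids*, a lysosomal sulfatase. The higher ones were *Junb*, *Penk*, *Clu* and *Pcp4l1*. In *Camk2a* the lower signal rested on replicate 2, at 934 and 610 at ZT4 against 617 and 210 at ZT16, and its log2 fold change of -1.07 was -0.29 without that mouse. In *Mef2c* the 4 probe sets gave -1.13, -0.86, -0.76 and -0.37, and without replicate 2 -0.12, -0.10, -0.28 and -0.19. In *Ids* the 2 probe sets gave -1.0004 and -0.76, and without it -0.59 and -0.16. *Cdk14* rested on it too, as -1.03 and -0.63 were -0.45 and -0.38 without that mouse. The second *Chga* probe set, at 1201 and 1188 against 933 and 955, did not rest on replicate 2 (log2 fold change -0.34, and -0.36 without it).

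The 20 higher probe sets with the lowest p, chosen in the same way, stand for 19 genes. Of these probe sets 14 belong to immediate early genes and to markers of striatum, myelin or choroid plexus, and 6 to genes outside those groups. *Gatm*, the enzyme of the first step of creatine synthesis, gave 1718 and 1897 at ZT4 and 2582 and 2904 at ZT16. Its fold change of 1.52 was the smallest of the 20 but the error was small (log2 fold change 0.60, standard error 0.11, adjusted p = 0.132). *Clk1*, a kinase that phosphorylates SR proteins of the splicing machinery, gave 1112 and 1474 at ZT4 and 2260 and 2157 at ZT16 (log2 fold change 0.79, standard error 0.14, adjusted p = 0.132). *Men1*, a nuclear scaffold of histone methyltransferases, gave 329 and 263 at ZT4 and 478 and 640 at ZT16 (0.91, adjusted p = 0.321). The other 3 had low signals at ZT4. *Ada*, which degrades adenosine, a signal of sleep need, gave 75.1 and 151 at ZT4 and 335 and 428 at ZT16 (1.83, adjusted p = 0.253). Other probe sets of *Ada*, below the filter, gave -0.03 and 0.66. *Pdc*, phosducin, a binder of G protein subunits known from retina and pineal gland, gave 62.4 and 61.3 at ZT4 and 336 and 249 at ZT16 (2.22, adjusted p = 0.132). It passed the filter on low signals only through the WT mice at ZT16, as did *Lbp* among the 20, since the other 6 arrays gave *Pdc* 61.3 to 110, so its size and place among the 20 are uncertain. Another probe set of *Pdc*, below the filter, overlapped between the times (0.13). *P4ha2*, a collagen prolyl hydroxylase, gave 62.5 and 43.3 at ZT4 and 195 and 243 at ZT16 (2.06, adjusted p = 0.132), while its second probe set gave 0.19, and -0.08 without replicate 2. Without replicate 2, 19 of the 20 stayed past 1.5-fold, and *Gatm* gave 0.52.

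**Figure D4:**
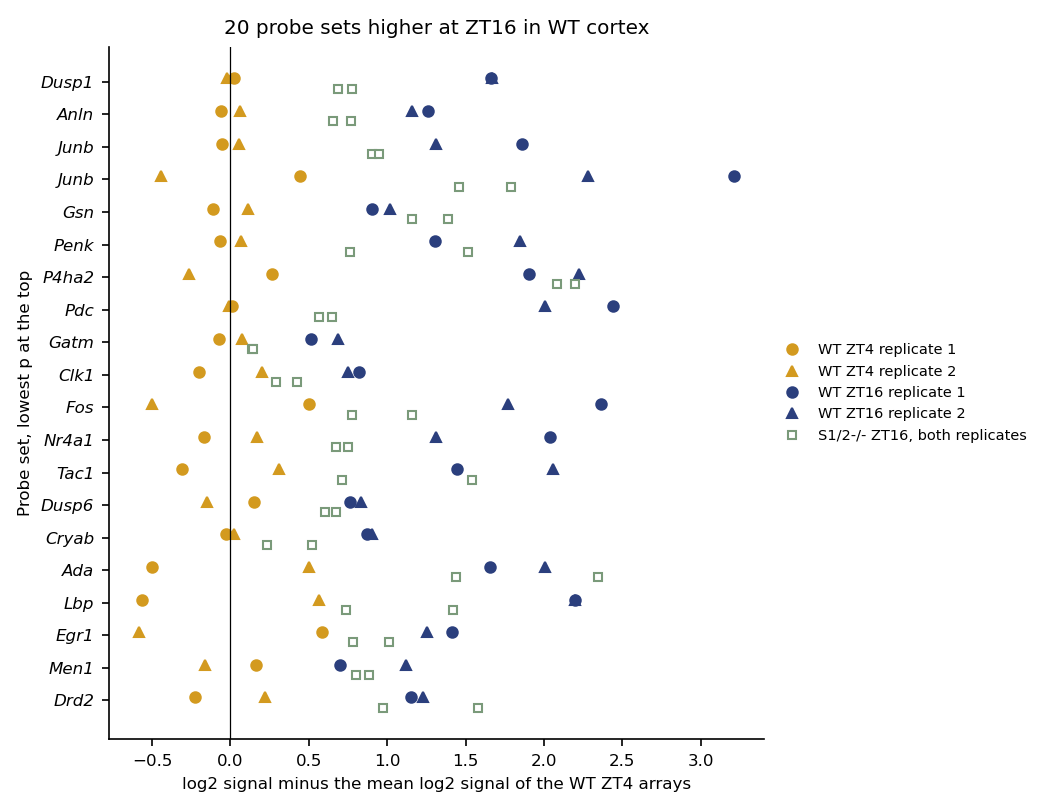
The 20 probe sets higher at ZT16 in WT with the lowest p, as the log2 signal of each array minus the mean log2 signal of the WT ZT4 arrays. Blue symbols are the WT mice at ZT16, yellow the WT mice at ZT4 and open squares the S1/2-/- mice at ZT16, and for *Dusp1*, *Anln* and *Cryab* the WT mice of a time nearly coincide.

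Beyond the named probe sets, gene lists were described by how many of their tested genes had both ZT16 signals above or below both ZT4 signals, beside the 18.7% higher and 17.9% lower over all 5690 tested genes, and by their median beside 0.00 for all genes. At an unadjusted p under 0.05, 4.08% of all tested genes were higher and 3.32% lower. Among 30 immediate early genes 12 were higher and 0 lower at that unadjusted p, and 15 (50%) were higher without overlap and 3 (10%) lower, with a median log2 fold change of 0.22. *Fos* gave 282 and 141 at ZT4 and 1026 and 679 at ZT16, and *Nr4a1*, an orphan nuclear receptor, 494 and 622 against 2280 and 1379. Feedback regulators of MAP kinase and growth factor signalling had 7 of 11 higher without overlap and a median of 0.28, with *Dusp6*, a phosphatase of ERK, at 1046 and 852 against 1601 and 1678. Both lists hold *Dusp1* and *Dusp6*, and *Ptpn5* of the latter list is also a striatal marker. The promoter of *Dusp1* is shown for its full cAMP response element, TGACGTCA, in capitals, which starts 143 bases before the start (chr17:26508473-26508722, minus strand). Of 25 tested immediate early genes with a promoter in the table, 3 held this element on either strand, where 2.03% of all genes did, and 17 (68%) held its first 5 letters, TGACG, which lie within it, where 23% of all genes did. TGACG was also held by 41.2% of the tested clock genes and 52.2% of the heat shock chaperones with a promoter there. For the genes of the 20 higher and 20 lower probe sets its share was 42.9% and 44.4%.
Dusp1: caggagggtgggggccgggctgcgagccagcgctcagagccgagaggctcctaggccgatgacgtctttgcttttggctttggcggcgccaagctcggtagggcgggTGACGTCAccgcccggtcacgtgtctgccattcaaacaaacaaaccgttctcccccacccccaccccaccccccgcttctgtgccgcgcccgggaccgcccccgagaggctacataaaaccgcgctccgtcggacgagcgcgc

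Of 22 glucocorticoid-responsive genes, which answer the hormone that nocturnal rodents release around dark onset, 10 (45.5%) were higher without overlap and 2 lower, 5 and 1 at the unadjusted p, and the median was 0.17. *Ddit4*, an inhibitor of mTOR, gave 614 and 647 at ZT4 and 814 and 1168 at ZT16 (log2 fold change 0.63, and 0.37 without replicate 2). *Nfkbia*, the inhibitor of NF-κB, gave 418 and 297 against 510 and 511 (0.54). On these probe sets both genes were above their light-phase values in both mice. A second tested probe set of *Nfkbia* overlapped between the times, at 335 and 276 against 289 and 381 (0.13, and -0.07 without replicate 2). *Cdkn1a*, an inhibitor of the cell cycle, was lower at 377 and 339 against 267 and 101, and its log2 fold change of -1.12 was -0.42 without replicate 2. Its other tested probe set went the opposite way, at 134 and 144 against 177 and 199 (0.44), so the gene has no settled direction here. *Dusp1*, *Per1* and others of this list are also immediate early or clock genes.

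Of 29 heat shock chaperones 10 had higher and 19 lower mean signals at ZT16, 6 were above and 6 below their light-phase signals without overlap, 20.7% each, and 3 were higher and 1 lower at the unadjusted p. The median was -0.05. The 3 higher at the unadjusted p were *Cryab* (log2 fold change 0.89), which is also counted as a myelin marker, *Dnajb1* and *Chordc1*. Another probe set of *Cryab*, below the filter, gave -1.45 in the opposite direction. *Dnajb1*, which delivers clients to HSP70, gave 813 and 904 at ZT4 and 1152 and 1133 at ZT16 (log2 fold change 0.41), *Chordc1*, a partner of HSP90, 698 and 800 against 925 and 958 (0.33), and *Hspa1b*, the inducible HSP70, 326 and 367 against 494 and 721 (0.79, and 0.51 without replicate 2). A second tested probe set of *Chordc1* was higher too, at 592 and 657 against 700 and 659 (0.12). The mitochondrial chaperonin *Hspd1* was lower, at 3103 and 3373 against 2905 and 2495 (-0.26, and -0.16 without replicate 2). A second tested probe set of *Hspd1* overlapped between the times (-0.47, and 0.15 without replicate 2). The promoter of *Hspa1b* is shown for its heat shock element, GAANNTTC, in capitals, which starts 104 bases before the start (chr17:34959239-34959488, minus strand). Of 23 tested heat shock chaperones with a promoter there, 12 (52.2%) held this motif or TTCNNGAA, which is the same site in the other order, on either strand, where 17% of all genes held either.
Hspa1b: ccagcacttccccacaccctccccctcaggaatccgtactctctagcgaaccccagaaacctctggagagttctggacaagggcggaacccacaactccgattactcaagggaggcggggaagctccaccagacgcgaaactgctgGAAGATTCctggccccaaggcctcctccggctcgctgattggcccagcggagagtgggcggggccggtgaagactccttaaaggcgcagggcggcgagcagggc

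Both tested RNA-binding proteins of the cold response had lower signals at ZT16. *Cirbp*, which is known to be higher at low brain temperature, gave 1278 and 1411 at ZT4 and 1245 and 858 at ZT16 (log2 fold change -0.38, and -0.11 without replicate 2). *Srsf5*, a splicing factor, gave 3094 and 2709 at ZT4 and 2407 and 2232 at ZT16 (-0.32). Among S1/2-/- mice *Srsf5* gave 2722 and 2628 against 2116 and 2274 (-0.29), so both genotypes had lower signals in the dark phase.

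In the endoplasmic reticulum, 7 of 23 chaperones and folding enzymes (30.4%) were higher without overlap and 2 (8.7%) lower, and their median was 0.07. *Manf*, a secreted factor released under folding stress, gave 745 and 745 at ZT4 and 961 and 1348 at ZT16 (log2 fold change 0.61, and 0.37 without replicate 2), and *Xbp1*, a transcription factor of the unfolded protein response, 1691 and 1404 against 1928 and 2374 (0.47). *Pdia3*, a disulfide isomerase, was lower, at 1333 and 1160 against 899.9 and 778 (-0.57). Among genes of cholesterol and fatty acid synthesis 3 of 23 were higher and 6 lower without overlap, while 14 were higher and 9 lower by the sign of the log2 fold change, and the median was 0.04. The higher ones included *Srebf1*, a transcription factor of lipid synthesis, at 1040 and 1076 against 1159 and 1295. The lower ones included *Hmgcs1*, at the entry to the mevalonate pathway, at 3146 and 2838 against 2334 and 1994 (-0.47), and *Idi1*, which isomerizes its isoprenoid units, at 1029 and 1123 against 919 and 794 (-0.33). Genes of adenosine and creatine metabolism, which hold *Gatm* and *Ada*, had 6 of 14 higher and 0 lower without overlap, with a median of 0.17.

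Genes of mRNA processing were split, with 18 of 53 higher (34%) and 8 lower (15.1%) without overlap, 7 and 3 at the unadjusted p, and a median of 0.03. Beside *Clk1*, its relative *Clk4* gave 328 and 329 at ZT4 and 482 and 441 at ZT16 (log2 fold change 0.49), and *Sf1*, which recognizes the branch point, 120 and 127 against 303 and 241 (1.13). Of 26 translation factors 3 were higher and 8 lower without overlap. *Eif4a1*, the helicase of initiation, gave 674 and 496 at ZT4 and 871 and 874 at ZT16 (0.59), whereas *Eif5* gave 1805 and 1696 against 1461 and 1281 (-0.36). Of 34 proteasome genes 10 (29.4%) were lower and 4 higher, their median was -0.05, and *Psmd5* was at 962 and 946 against 675 and 826 (-0.35). Of 58 genes of oxidative phosphorylation 7 were higher and 7 lower, 12.1% each and under the share of all genes in both directions.

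Lists of neuronal genes differed in direction. Of 21 genes of glutamate receptors and the postsynaptic density 6 (28.6%) were higher and 4 (19%) lower without overlap, with a median of -0.05 that was 0.09 without replicate 2, and of 19 markers of cortical interneurons 5 were higher and 5 lower. In the list of synaptic vesicle and exocytosis genes 12 of 39 (30.8%) were lower without overlap and 9 higher, 5 and 1 at the unadjusted p, and the median was -0.09. *Nsf*, the ATPase that takes apart SNARE complexes, gave 14811 and 12956 at ZT4 and 12474 and 9890 at ZT16 (log2 fold change -0.32, and -0.15 without replicate 2), and *Snap91*, a clathrin adaptor, 3007 and 2749 against 2291 and 2500 (-0.26). *Doc2b*, a calcium sensor of spontaneous release, was higher at 97.8 and 104 against 231 and 180 (1.01). In the list of neural adhesion and axon guidance genes 15 of 51 (29.4%) were lower and 5 higher, 5 and 2 at the unadjusted p, and the median was -0.13. *Chl1*, an adhesion molecule of the L1 family, gave 344 and 368 at ZT4 and 263 and 76.7 at ZT16, so its log2 fold change of -1.32 was -0.43 without replicate 2. *Cdh2*, N-cadherin, gave 1096 and 928 against 785 and 731 (-0.41), while *Sema6a* was higher at 90.1 and 48.8 against 152 and 216 (1.45). Without replicate 2 the medians of these lists were -0.05 and -0.07. Of 19 markers of neurons in general 5 were lower and 1 higher without overlap (median -0.10), with *Stmn2*, a regulator of microtubules, at 8508 and 8355 against 7134 and 7245. More lower than higher members were not particular to neuronal lists. Of 12 housekeeping genes 5 (41.7%) were lower and 1 higher without overlap, 0 and 0 at the unadjusted p, with a median of -0.08. As given above, markers of striatum, myelin and choroid plexus were higher at ZT16 on the same arrays, and their part in these lists was not tested.

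Channels, receptors and peptides had members in both directions. Without overlap, 8 of 34 voltage-gated channel genes were lower and 4 higher, and the median of -0.08 was 0.07 without replicate 2. *Kcnma1*, a calcium-activated potassium channel, gave 2249 and 2348 at ZT4 and 1979 and 1350 at ZT16 (log2 fold change -0.49, and -0.22 without replicate 2). Of 27 neuropeptides and receptors 9 (33.3%) were lower and 5 higher. Beside *Adcyap1* and *Chga*, *Npy1r*, a receptor of neuropeptide Y, gave 447 and 463 at ZT4 and 244 and 323 at ZT16 (-0.70, and -0.90 without replicate 2), while the higher ones included the striatal peptides *Penk* and *Tac1*. Among glycolysis genes *Pfkfb3*, which makes an activator of glycolysis, gave 43.5 and 146 at ZT4 and 239 and 375 at ZT16 (1.91), with 6 of 34 genes of the list higher and 6 lower.

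**Figure D5:**
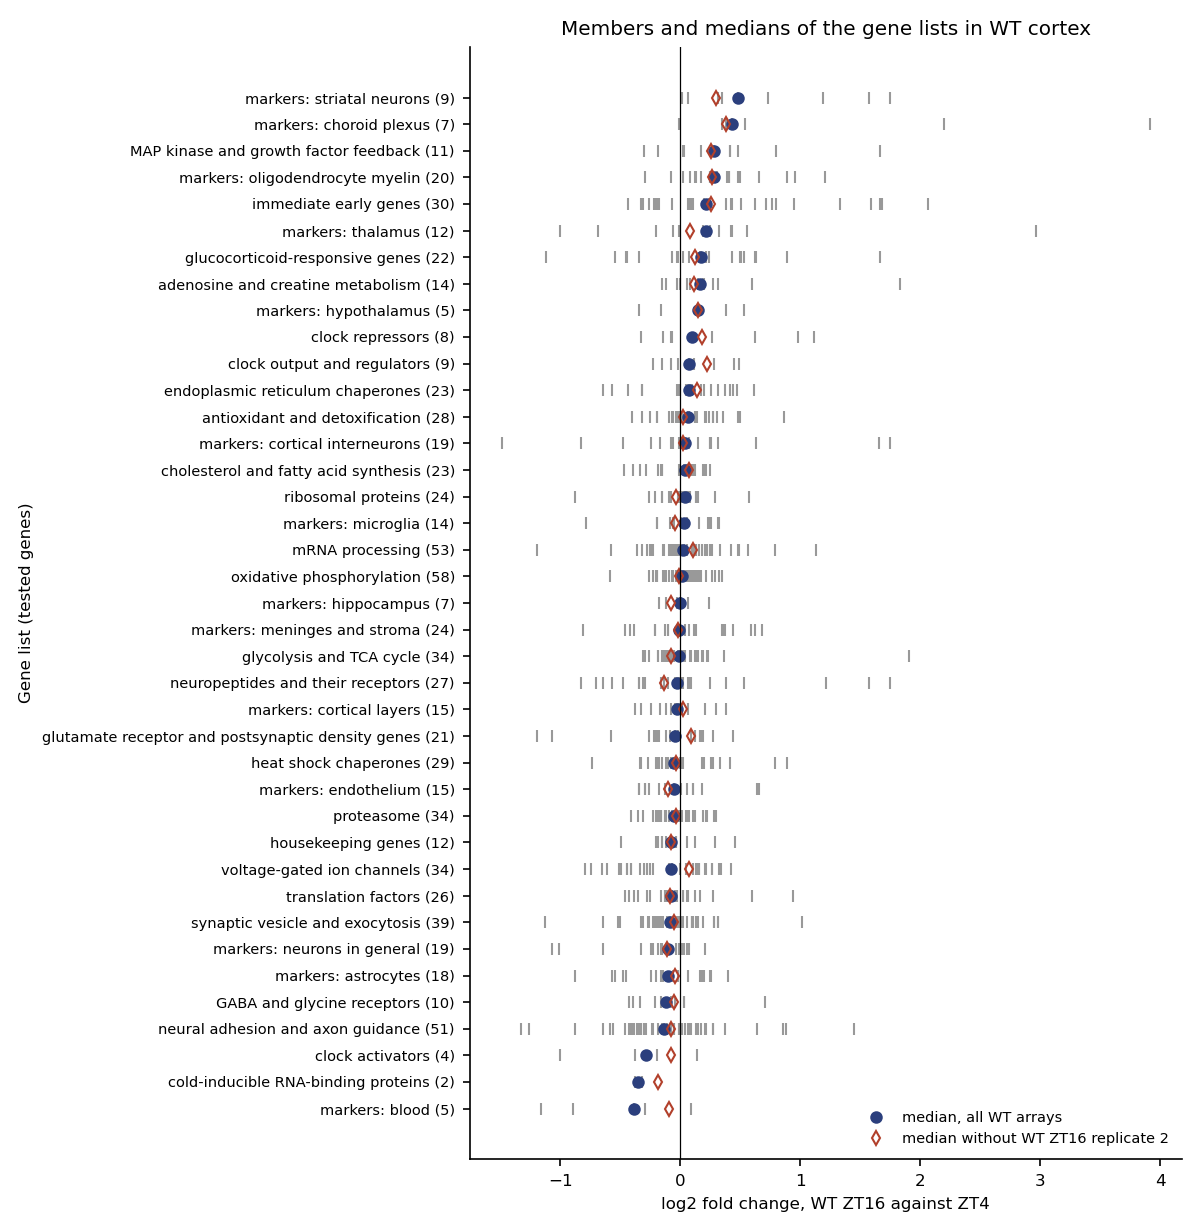
Each grey tick is the log2 fold change, ZT16 against ZT4, of 1 tested gene of a list in WT cortex, with the number of tested genes in parentheses. Blue dots are list medians over all WT arrays and open red diamonds medians without WT ZT16 replicate 2, which lie to the right of the dots for neural adhesion, channels and clock activators.

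In the S1/2-/- mice, the comparison of ZT16 with ZT4 gave 0 calls from limma and 545 probe sets at an unadjusted p under 0.05. There 21% of the 7453 tested probe sets had both signals higher at ZT16 and 20.4% both lower. Over all 7453, 4094 had log2 fold changes of the same sign in both genotypes, 1798 of them without overlap in S1/2-/- mice. The sign was opposite for 3359, 1284 of them without overlap there. Of the 20 probe sets higher in WT, 12 were higher in S1/2-/- mice too, 8 of them without overlap, and 8 were lower, 1 without overlap. Their median log2 fold change was 1.58 in WT and 0.08 in S1/2-/- mice. Of the 20 lower in WT, 14 were lower in S1/2-/- mice, 10 without overlap, and 6 were higher, 4 without overlap (*Pcp2*, *Gstm3*, *Gng12* and *Gpatch2*), with medians of -0.91 and -0.20. Since the probe sets were chosen for their WT values, the smaller medians in S1/2-/- mice are a description. The summed signal of the striatal markers was 17569 to 25028 at ZT4 and 15566 to 22181 at ZT16 in S1/2-/- mice, that of the choroid plexus markers 4121 to 5273 and 3481 to 3740, and that of the myelin markers 47884 to 48729 and 45081 to 47696. All 3 ran higher at ZT16 in WT, whereas in S1/2-/- mice the latter pair ran lower at ZT16 and the striatal sums overlapped. Their part in this contrast was not tested. *Wls* was the nearest in size, with 595 and 634 against 403 and 425 (log2 fold change -0.57), and *Zfp90* (-0.58), *Fabp7* (-0.56) and *Npy1r* (-0.57) were lower as well. Of these, *Fabp7* overlapped between the times, at 617 and 467 against 279 and 474. *Pcp2* was higher, with 198 and 318 at ZT4 and 780 and 510 at ZT16 (1.33). The test of the difference between the genotypes called 0 probe sets in limma, with 424 at an unadjusted p under 0.05. The lowest adjusted p was 0.295, for *Dusp1*, whose S1/2-/- signals were 1616 and 1009 against 1149 and 1082, and for *Pcp2* it was 0.465.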

How the data were processed

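RNA of 8 mice was hybridised to 1 Affymetrix array each. The authors deposited intensity values per probe set, condensed with MAS5 (version not given in the sources used here) and scaled to a trimmed mean of 500 per array. The labels give Trizol for RNA extraction and the methods RNeasy columns. From the deposited table, 66 control probe sets were left out, 64 signals under 1 were set to 1, and log2 was taken. The array's annotation gave 1 gene symbol for 10833 of 12422 probe sets, several for 396 and none for 1193. Testing was limited to the 7453 probe sets (5690 genes) whose mean log2 signal reached the 40th percentile, 6.79. A limma model (version 3.58.1, R 4.3.3) with a mean for each of the 4 groups and an intensity trend took in all 8 arrays (4 residual and 6.02 prior degrees of freedom), with two-sided p Benjamini-Hochberg adjusted over all tested probe sets. The fit was tested on simulated data. The number of arrays limits the precision.

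Named genes are those called, the 20 higher and 20 lower probe sets by p with a fold change over 1.5 and no overlap between the times, the tested clock genes, up to 4 members of each described list by the size of the moderated statistic, and genes the paper names for these arrays. A few were chosen after their values were seen, as stated. Lists used 1 probe set per gene, the brightest, and were not tested as sets. The members, lists and tests were chosen with earlier results of these data known. As alternatives, the filter was dropped or set to the 60th percentile, arrays were quantile normalized or centred on their medians, a pseudocount of 16.9 was added, the intensity trend was left out, only the WT arrays were fitted, the replicate number entered as a block, the methods' ANOVA or an unadjusted p was used, and each array was left out in turn. Promoters are those of RefSeq (GRCm38.p6).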

Additional observations from a re-analysis of the deposited data

How the results depend on the processing

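The count of probe sets called between ZT4 and ZT16 in WT was 1 and stayed 1 with quantile normalization and with a pseudocount. It was 0 without a filter, 0 without the intensity trend, 2 with the WT arrays alone (*Dusp1* and *Penk*), 4 with a filter at the 60th percentile and 5 with median centring. The last pair of settings called *Dusp1*, *Anln*, *Junb* and *Sugt1*. At an unadjusted p the count was 257. The methods' ANOVA over the 4 WT arrays called 0 after adjustment and 80 before. With 1 array left out at a time the WT count ran from 0 to 100. The 0 came without WT ZT16 replicate 2 and without either S1/2-/- mouse at ZT16. The 100, of which 22 were higher and 78 lower, came without WT ZT16 replicate 1, where replicate 2 was the only dark-phase WT mouse and was assumed to vary like the other groups. Without WT ZT4 replicate 1 the called probe set was *Egr1* and without WT ZT4 replicate 2 *Phf7*. For S1/2-/- mice the count was 0, with 210 at an unadjusted p, 92 by the ANOVA before adjustment, and 0 to 1 with an array left out. For the difference between the genotypes it was 0, with 298 at an unadjusted p and 0 to 17 with an array left out, the 17 without WT ZT16 replicate 1.

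The main model did not pair arrays by replicate number. Deviations of same-numbered arrays correlated at only 0.00 to 0.10, and the labels name no shared litter or day. Such a correlation cannot show whether a few genes differ by replicate number. For the striatal markers *Penk*, *Tac1* and *Drd2*, replicate 2 had the higher signal in each of the 4 groups. For *Pde1b* and *Ptpn5*, also striatal markers, it did not. The cause was not tested. With the replicate number as a block, 10 probe sets were called in WT, 0 in S1/2-/- mice and 2, *Penk* and *Tac1*, for the difference.

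Of 1508 recomputed log2 fold changes of the named probe sets, 13 changed sign, all in 10 clock genes with changes near 0. *Usp2* gave 0.0027 with median centring. With an array left out, *Usp2* ran from -0.12 to 0.074, *Csnk1d* from -0.076 to 0.22, *Nr1d2* from -0.17 to 0.039, *Csnk1e* from -0.52 to 0.061, *Cry2* from -0.81 to 0.16, *Nampt* from -0.36 to 0.050, *Clock* from -0.11 to 0.39, *Ppargc1a* from -0.21 to 0.44, *Per3* from -0.32 to 0.17 and *Timeless* from -0.40 to 0.24. Further probe sets of the 20 higher and 20 lower genes were not part of this count. Without replicate 2 those of *Sugt1*, *Nedd4*, *Gng12* and *P4ha2* changed sign, as given above. Of 400 recomputed list medians, 330 moved by less than their standard deviation between replicates and 70 by more. The causes were not tested. Signals near background limit the dimmest named genes, such as *P4ha2*, *Pdc* and *Ada* at ZT4.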
